A study of Mus musculus with 15 samples.

Results

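Matrix metalloproteinases (MMPs) and their tissue inhibitors (TIMPs) were examined through 10 genes, Mmp2, Mmp3, Mmp12, Mmp13, Mmp14, Mmp19, Mmp23, Timp1, Timp2 and Timp3, taken by symbol from the 56832 genes of the count table. All 10 had enough reads to be tested. The cells were bone marrow mesenchymal stromal cells (MSCs), grown from mouse long bones, sorted magnetically for CD45- cells and profiled by bulk RNA sequencing. The study's methods also name Ter119 and CD31, markers of red and endothelial cells, among those depleted. MSCs of wild-type mice (TauT+/+) were compared with those of mice lacking the taurine transporter TauT, the product of Slc6a6 (TauT-/-), on a C57BL/6J background. The knockout is global, so every cell of the animal lacks the transporter, and the mice were 16 weeks old in the study's design. The labels give no treatment for either genotype, and all cultures were grown in medium without ascorbic acid but with serum. There were 15 libraries, of which 4 TauT+/+ and 4 TauT-/- carry a male label and 3 TauT+/+ and 4 TauT-/- a female label. The labels do not say whether libraries of 1 group came from separate animals or cultures, so a p-value here measures the spread between libraries.

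MMPs are zinc-dependent endopeptidases that are made as inactive proenzymes and, once activated, cut collagens, gelatin, elastin and other proteins of the extracellular matrix. Some are secreted and others sit in the plasma membrane, and TIMPs block the active site of the enzymes by binding it. In bone, the balance of proteases and inhibitors is part of how matrix is laid down and remodelled, and marrow holds both stromal cells and macrophages that make them.

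Some features of the libraries come before the results. Total counts ran from 69764291 to 101575071 in the male-label libraries and from 12761107 to 20781070 in the female-label libraries, so depth and sex label cannot be told apart. TauT+/+ male 1 and TauT+/+ female 1 were nearly the same, as were TauT-/- male 1 and TauT-/- female 1 (spread of log2 ratios over genes 0.121 and 0.109, where counting error gives 0.067 and 0.064 and the next closest of the 105 pairs had 0.300). Sex-linked genes went against the label in 3 libraries, TauT+/+ male 1, TauT-/- male 1 and TauT+/+ female 3. Slc6a6 reads did not separate the genotypes, with 592 to 2591 CPM (counts scaled to library size) in TauT+/+ and 401 to 1521 CPM in TauT-/-, so they check no label, and libraries are named by their labels throughout. Markers of marrow stroma summed to 28159 to 47939 CPM in TauT+/+ and 6249 to 40441 CPM in TauT-/- libraries. By their means, Col1a1, Cxcl12 and Col1a2 held most of these sums. All 14 markers were detected, with Pdgfrb at 256 CPM or more in all libraries and Lepr between 0 and 2.35 CPM.

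Mmp3, Mmp12 and Mmp13 are neighbours. They lie on the plus strand within 183 kb of chromosome 9 (GRCm39, Mmp13 at 7272514-7283331, Mmp12 at 7344381-7369499 and Mmp3 at 7445822-7455975), in a cluster of 10 Mmp genes. The other members are spread over chromosomes 4, 8, 10, 11, 14 and X. The bases just before a start site of each of these 3 genes are shown. These windows were chosen because each holds the AP-1 motif (letters TGANTCA, which reads the same on both strands). AP-1 factors are among the genes compared with the members further on. Each window is the last 150 bases before the RefSeq start (build GRCm38.p6, plus strand, 5′ to 3′), at chr9:7272364-7272513 for Mmp13, chr9:7347224-7347373 for Mmp12 and chr9:7445672-7445821 for Mmp3. Capitals mark TGANTCA and, in Mmp13 and Mmp3, the TATA box letters TATAAA, also searched on both strands.
Mmp13: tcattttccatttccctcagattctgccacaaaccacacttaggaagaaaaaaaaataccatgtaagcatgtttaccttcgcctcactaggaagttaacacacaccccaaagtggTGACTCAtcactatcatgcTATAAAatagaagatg
Mmp12: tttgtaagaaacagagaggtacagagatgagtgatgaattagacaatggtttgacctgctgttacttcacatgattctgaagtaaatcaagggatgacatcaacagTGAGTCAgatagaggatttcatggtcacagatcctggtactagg
Mmp3: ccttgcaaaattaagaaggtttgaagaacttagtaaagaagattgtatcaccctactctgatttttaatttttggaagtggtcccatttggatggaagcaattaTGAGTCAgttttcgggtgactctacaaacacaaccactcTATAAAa

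The motif began 35 bases before the start in Mmp13, 44 in Mmp12 and 46 in Mmp3. RefSeq lists 2 starts for Mmp12, and the window shown belongs to the downstream one. The upstream start had no TGANTCA within 250 bases before it. Promoter entries were found for 8 of the 10 members (10 entries), and within 250 bases before the start TGANTCA was in 3 of the 10 entries, against 6.75% of all 32851 mouse entries. TATAAA was in 2 of the entries against 12.4% of all entries, and the RUNX motif TGTGGT, searched on both strands, was in 3 (Mmp13, Mmp14 and Mmp23) against 14% of all entries. A match of letters is a description of the window only.

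Against this setting, Mmp12 stood apart among the members. Its mean level in TauT-/- MSCs was several times that in TauT+/+ MSCs, though its levels overlapped between genotypes and spread widely. The other 9 genes also had overlapping levels, with small or widely spread differences. No member passed an adjusted p of 0.05 in the main edgeR fit, where 1.30% of the 17204 genes tested did. Mmp12 alone had an unadjusted p under 0.05, a level that 23.6% of all genes reached. With DESeq2, 1 of the 10 members passed, Mmp12, against 12.1% of all genes. With limma 0 passed, where it called 611 of the 17204 genes higher and 708 lower. In no member were the libraries of the genotypes fully separated, which was so in 1.13% of all genes. The median log2 fold change (TauT-/- over TauT+/+) was 0.10 for the 10 members, 7 of them above 0, and -0.015 for all genes.

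**Figure D1:**
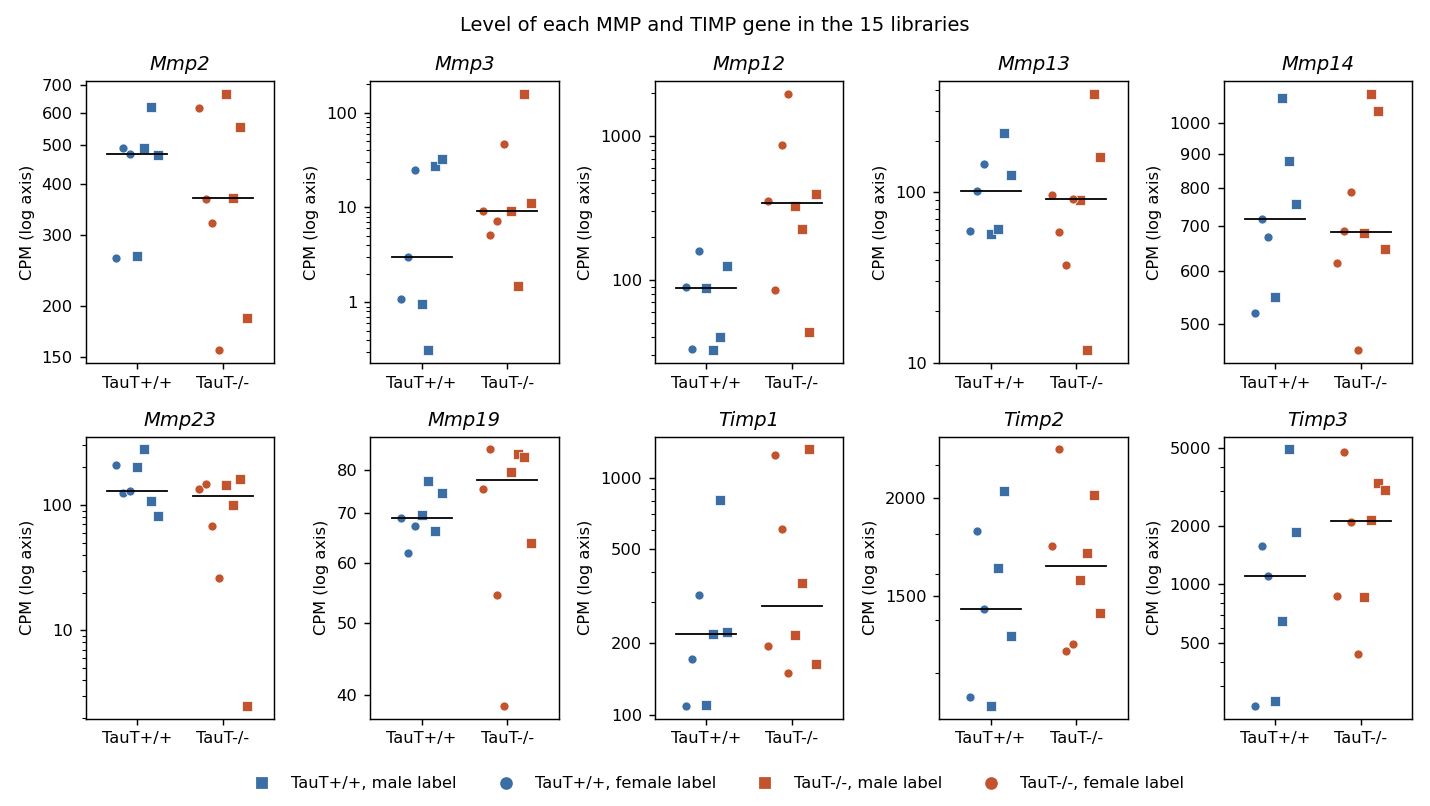
Level of each of the 10 genes in CPM (counts scaled to library size, log axis) in the 7 TauT+/+ and 8 TauT-/- libraries, with squares for male-label and circles for female-label libraries and a bar at each median. For Mmp12, 6 of the 8 TauT-/- points lie above every TauT+/+ point, counting both libraries of a near-identical pair. In all 10 panels the ranges of the genotypes overlap at least in part.

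Mmp12 encodes macrophage elastase, a secreted enzyme that cuts elastin and is made mainly by macrophages. Its level in the TauT+/+ male 1 to 4 libraries was 88.5, 32.6, 40.5 and 126 CPM, and in TauT+/+ female 1 to 3 it was 89.5, 33.1 and 159.8 CPM. In TauT-/- male 1 to 4 it was 328, 227, 43.5 and 396 CPM, and in TauT-/- female 1 to 4 it was 353, 86.0, 864 and 1969.6 CPM. Thus 6 of the 8 TauT-/- libraries lay above the highest TauT+/+ library, whereas TauT-/- male 3 and TauT-/- female 2 fell inside the TauT+/+ range. The 6 include both TauT-/- male 1 and TauT-/- female 1, which are near-identical. The means, SDs and medians that follow also count both libraries of each near-identical pair. The means were 81.5 ± 49.5 CPM (SD, n = 7) and 534 ± 632 CPM (SD, n = 8), and the medians 88.5 and 341 CPM. Without TauT-/- female 4 the TauT-/- mean was 328 ± 272 CPM (SD, n = 7). Over all 15 libraries the log2 fold change was 2.39 (SE 0.67, 95% interval 0.95 to 3.83), with an adjusted p of 0.0740 in edgeR and of 0.00252 in DESeq2. Across the 28 alternatives run with edgeR, DESeq2 and limma, the log2 fold change of Mmp12 stayed positive, from 1.77 to 3.15, with adjusted p from 0.00252 to 0.631. It was 1.97 without TauT-/- female 4, the library with the most Mmp12.

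Leaving out the doubted libraries moved the Mmp12 difference little and did not bring it past the threshold. Over all genes tested, edgeR called 2, 7 and 0 in the 3 reduced sets that follow, and 0 within either label. Missing the threshold there says little about a single gene. With each near-identical pair counted once, the log2 fold change was 2.46 (edgeR adjusted p 0.112) when the female-label library was kept and 2.37 (edgeR adjusted p 0.137) when the male-label one was kept. Without the 3 libraries whose sex-linked genes disagree with the label it was 2.66 (edgeR adjusted p 0.181). Within male-label libraries the value was 1.81 (SE 0.68) and within female-label libraries 3.15 (SE 1.10), with edgeR adjusted p of 0.631 and 0.309. The difference between these effects, male minus female label, was -1.36 (SE 1.24, unadjusted edgeR p 0.294).

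Since Mmp12 is known as a macrophage product, markers of macrophages were read beside it. All 15 macrophage markers had higher fitted levels in TauT-/- libraries, 1 of them past the edgeR threshold (Cd68) and 11 with an unadjusted p under 0.05, at a median log2 fold change of 0.91. Their summed level was 1277 to 9021 CPM in TauT+/+ (median 7439) and 5938 to 19222 CPM in TauT-/- libraries (median 14035), and none was at 0 in all libraries. By its mean, Lyz2 was the largest part of these sums, at 3900 CPM in TauT+/+ and 7700 CPM in TauT-/- libraries (edgeR adjusted p 0.167). Cd68, a lysosomal protein of macrophages, was at 36.3 to 259 CPM in TauT+/+ and 309 to 1087 CPM in TauT-/- libraries, a log2 fold change of 1.46 (SE 0.33, edgeR adjusted p 0.0445) with no overlap. Ptprc, which encodes the CD45 used for depletion, was at 27.9 to 179 CPM in TauT+/+ (median 133) and 114 to 369.6 CPM in TauT-/- libraries (median 242), a log2 fold change of 0.91 (SE 0.34, edgeR adjusted p 0.129). For Csf1r, the receptor of the macrophage growth factor, the log2 fold change was 0.88 (SE 0.37, edgeR adjusted p 0.170), and for Adgre1, which encodes F4/80, it was 0.98 (SE 0.66, edgeR adjusted p 0.387). Of the 14 stromal markers, 11 had a log2 fold change below 0, as had 8888 of all 17204 genes, and in edgeR 0 of the 14 passed the threshold. At an unadjusted p under 0.05, 4 stromal markers were lower and 1 higher. DESeq2 called 3 stromal markers lower and 6 macrophage markers higher. The shares over all genes were 1.30% past the edgeR threshold, 23.6% at that unadjusted p and 12.1% in DESeq2. The genotypes did not overlap in 1.13% of all genes.

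Mmp12 and the macrophage markers did not keep to 1 ratio from library to library. TauT-/- male 3 and TauT-/- female 2 had marker sums of 15767 and 17538 CPM, among the 3 highest, with Mmp12 at 43.5 and 86.0 CPM. TauT-/- male 1 and its near-identical partner had marker sums of 5938 and 6496 CPM, inside the TauT+/+ range, with Mmp12 at 328 and 353 CPM. TauT-/- female 4 was highest in both (19222 and 1969.6 CPM) and had the lowest stromal sum, 6249 CPM. The part of macrophage content in the Mmp12 difference was not tested, and in bulk samples a change in the number of cells of a type cannot be told apart from a change in RNA per cell.

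**Figure D2:**
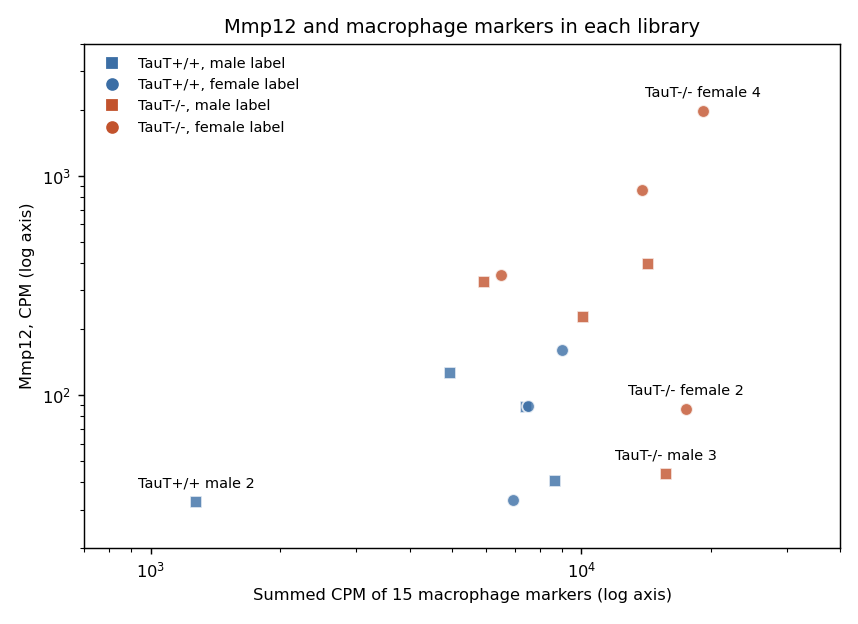
Mmp12 level (CPM, log axis) against the summed level of 15 macrophage markers (CPM, log axis), with 1 point for each of the 15 libraries and colour for genotype. Lyz2 is the largest part of the sum by its mean. TauT-/- male 3 and TauT-/- female 2 lie at the lower right, with much marker RNA and Mmp12 at 43.5 and 86.0 CPM, and TauT-/- female 4 lies at the top right.

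For Mmp3 and Mmp13, the stromelysin and collagenase of the same cluster, no difference could be read. Mmp3 cuts many matrix proteins and activates other proenzymes, and it was the scarcest member. Its level in TauT+/+ male 1 to 4 was 0.961, 0.311, 27.3 and 32.3 CPM, and in TauT+/+ female 1 to 3 it was 1.09, 2.98 and 24.9 CPM. In TauT-/- male 1 to 4 it was 9.27, 1.47, 158 and 11.2 CPM, and in TauT-/- female 1 to 4 it was 9.12, 5.18, 7.15 and 46.6 CPM. Both genotypes thus had a few libraries with much Mmp3 and the rest with little, and the ranges overlapped. The log2 fold change was 1.22 (SE 1.08, edgeR adjusted p 0.518), and it turned to -0.13 without TauT-/- male 3, the library at 158 CPM.

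Mmp13 is the main collagenase of mouse bone and cartilage and cuts fibrillar collagen. It was at 57.1, 60.4, 224 and 126 CPM in TauT+/+ male 1 to 4 and at 58.9, 101.5 and 146 CPM in TauT+/+ female 1 to 3. In TauT-/- male 1 to 4 it was at 90.4, 11.8, 378 and 160.4 CPM, and in TauT-/- female 1 to 4 at 95.7, 58.4, 37.2 and 91.1 CPM. The TauT-/- libraries held both the highest and the lowest value. The means were 111 ± 61.2 CPM (SD, n = 7) and 115 ± 115 CPM (SD, n = 8), and the log2 fold change of -0.0068 (SE 0.54, 95% interval -1.15 to 1.14, edgeR adjusted p 0.995) changed sign under 13 of the 28 alternatives. Neither direction can be read for Mmp13, and the interval leaves room for a difference of more than 1 on the log2 scale either way. Mmp3 and Mmp13 varied together over the 15 libraries (Pearson r of log2 CPM 0.70), while r of Mmp12 was 0.26 with Mmp3 and -0.26 with Mmp13, as descriptions over libraries that share genotypes and near-identical pairs.

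Mmp2 and Mmp14 form a known pair, in which the membrane-anchored enzyme from Mmp14 activates the proenzyme of the gelatinase from Mmp2 at the cell surface, with the protein of Timp2 as a bridge. Mmp2 ran from 262 to 620.1 CPM in TauT+/+ (median 473) and from 155.5 to 667 CPM in TauT-/- libraries (median 369). The 2 lowest TauT-/- libraries, male 4 and female 4 (187 and 155.5 CPM), were under every TauT+/+ library and TauT-/- male 1 was above all of them. The means were 439 ± 130.1 CPM (SD, n = 7) and 404 ± 191 CPM (SD, n = 8), with a log2 fold change of -0.11 (SE 0.31, edgeR adjusted p 0.866). Mmp14 ran from 519 to 1092 CPM in TauT+/+ (median 719) and from 456 to 1106 CPM in TauT-/- libraries (median 685). Nearly the same span was covered in both genotypes, and the log2 fold change was 0.047 (SE 0.18, edgeR adjusted p 0.904). The 95% interval of Mmp14 was -0.34 to 0.44, the narrowest after that of Mmp19.

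Mmp19 and Mmp23 differed most in how steady they were. Mmp19, a secreted MMP that cuts basement membrane proteins, was at 62.0 to 77.2 CPM in TauT+/+ (median 69.0) and at 38.7 to 85.1 CPM in TauT-/- libraries (median 77.5). The log2 fold change was 0.033 (SE 0.14, 95% interval -0.27 to 0.33, edgeR adjusted p 0.912). TauT-/- libraries lay on both sides of the TauT+/+ range, 4 above it and 2 below. Mmp23 encodes a membrane-bound MMP without the hemopexin domain of most others. It was at 203, 278, 107.5 and 81.9 CPM in TauT+/+ male 1 to 4 and at 208, 124 and 130.4 CPM in TauT+/+ female 1 to 3. In TauT-/- male 1 to 4 it was at 145, 100.3, 162 and 2.49 CPM, and in TauT-/- female 1 to 4 at 135, 146, 67.9 and 25.9 CPM. Its 3 lowest values were all in TauT-/- libraries, but the other 5 lay inside the TauT+/+ range. The log2 fold change was -0.71 (SE 0.58, edgeR adjusted p 0.474), and -0.50 without TauT-/- male 4, which held only 2.49 CPM from 219 reads. Mmp23 kept its sign in all 28 alternatives.

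The inhibitors were read in the same way. Timp1 encodes a secreted inhibitor that acts on most soluble MMPs. It was at 109, 218, 808 and 223 CPM in TauT+/+ male 1 to 4 and at 109, 172 and 319 CPM in TauT+/+ female 1 to 3. In TauT-/- male 1 to 4 it was at 217, 359, 1317 and 164 CPM, and in TauT-/- female 1 to 4 at 194.5, 1251, 609 and 149.9 CPM. The 2 highest TauT-/- libraries exceeded the highest TauT+/+ one and the rest lay inside its range. The means were 279.7 ± 244 CPM (SD, n = 7) and 533 ± 487 CPM (SD, n = 8), and the log2 fold change was 0.99 (SE 0.61, 95% interval -0.32 to 2.30, edgeR adjusted p 0.341). It was 0.50 without TauT-/- male 3 and 1.47 without TauT+/+ male 3.

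Timp2 encodes the inhibitor that also takes part in Mmp2 activation. It ran from 1090.3 to 2042 CPM in TauT+/+ (median 1445) and from 1278 to 2303 CPM in TauT-/- libraries (median 1637). Its means, 1496 ± 354 CPM (SD, n = 7) and 1669 ± 355 CPM (SD, n = 8), differed by less than the spread within either genotype. The log2 fold change was 0.16 (SE 0.18, 95% interval -0.23 to 0.55, edgeR adjusted p 0.624). Timp3 encodes the matrix-bound inhibitor, which also blocks several ADAM and ADAMTS proteases. It was at 250.5, 646, 4929 and 1858 CPM in TauT+/+ male 1 to 4 and at 238, 1581 and 1102 CPM in TauT+/+ female 1 to 3. In TauT-/- male 1 to 4 it was at 866, 2152, 3298 and 3044 CPM, and in TauT-/- female 1 to 4 at 871, 4779.6, 2079 and 438 CPM. The highest value was a TauT+/+ library and no TauT-/- library was above it. The log2 fold change was 0.64 (SE 0.66, 95% interval -0.76 to 2.04, edgeR adjusted p 0.577), and it was 1.20 without TauT+/+ male 3 and 0.29 without TauT-/- female 2. All 3 inhibitors had positive log2 fold changes in each of the 28 alternatives and passed the threshold in none of them.

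**Figure D3:**
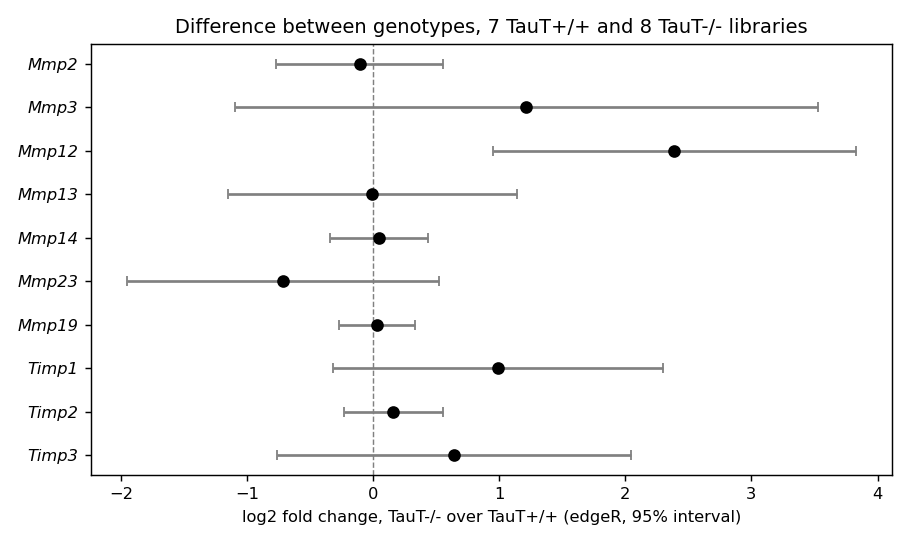
Log2 fold change of each gene (TauT-/- over TauT+/+, edgeR, points) with its 95% interval (bars) from 7 and 8 libraries. The interval of Mmp12, 0.95 to 3.83, lies above 0 before adjustment over all genes, and those of the other 9 genes cross 0.

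The members fell into steady and unsteady genes. The SD of log2 CPM within the 4 groups of genotype and sex label was 0.29 for Mmp19, 0.34 for Timp2 and 0.37 for Mmp14, under the median of 0.48 over all genes tested. Mmp2 followed at 0.69. For Timp1, Mmp13, Mmp12, Timp3, Mmp23 and Mmp3 it was 1.24, 1.29, 1.44, 1.47, 1.68 and 2.57, which places each of these 6 at or above 88.3% of all genes. From the lowest to the highest library, Mmp3 spanned 508-fold, Mmp23 112-fold and Mmp12 60.5-fold, whereas Timp2 spanned 2.11-fold and Mmp19 2.20-fold. The 95% interval of the fold change of each of these 6 genes reached more than 1 on the log2 scale to either side of its estimate.

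Libraries that were high in 1 inhibitor were often high in the others. Over the 15 libraries, Pearson r of log2 CPM was 0.79 for Timp1 with Timp3, 0.74 for Timp2 with Timp3 and 0.73 for Timp1 with Timp2. TauT+/+ male 3, TauT-/- male 3 and TauT-/- female 2 had the 3 highest values of each of the 3 inhibitors, so the highest libraries came from both genotypes. The first 2 of these also had the highest Mmp13. At the other end, TauT+/+ male 1 and TauT+/+ female 1, the near-identical pair, had the lowest 2 values of each inhibitor. The lowest r was -0.59, for Mmp12 with Mmp19, and Mmp12 also ran against Mmp23 (-0.55) and Mmp2 (-0.52). TauT-/- female 4, which had the most Mmp12 and the least stromal marker RNA, was the lowest of all libraries in Mmp2, Mmp14 and Mmp19.

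**Figure D4:**
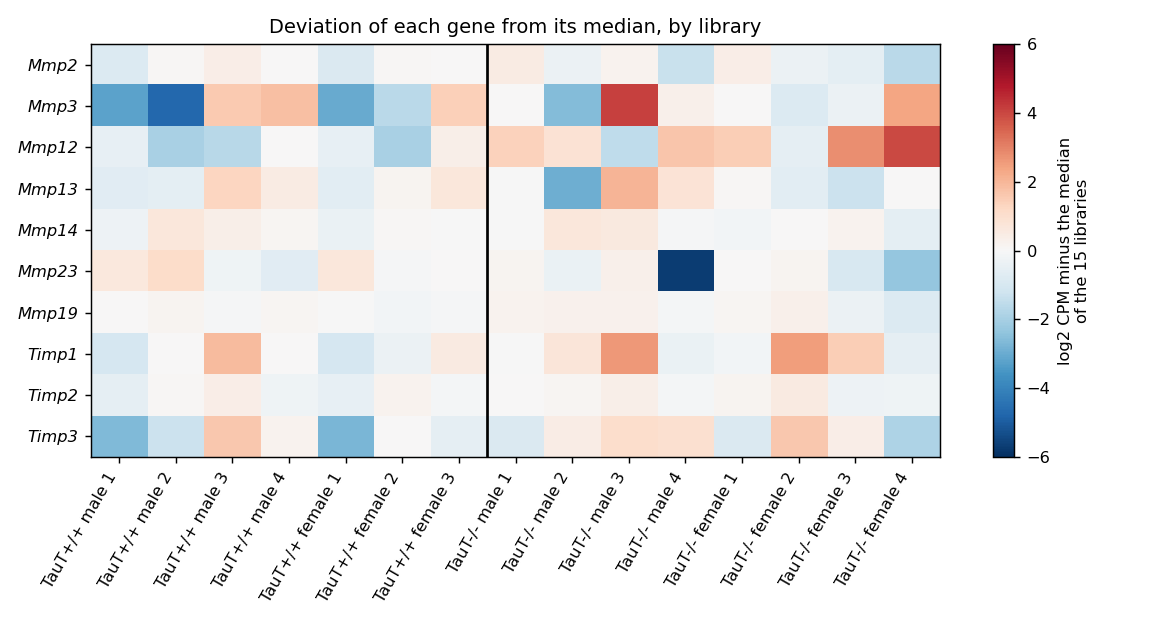
Log2 CPM of each gene minus its median over the 15 libraries (colour scale), with TauT+/+ libraries left and TauT-/- libraries right of the line. Timp1 and Timp3 are both high in TauT+/+ male 3, TauT-/- male 3 and TauT-/- female 2, and Mmp23 is lowest in TauT-/- male 4, at 2.49 CPM.

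Levels can be set against each other per length of gene (CPM divided by kilobases of merged exons). In TauT+/+ MSCs the level was 335 ± 79.4 for Timp2, 186 ± 200.1 for Timp3 and 143 ± 125 for Timp1 (SD, n = 7), so the inhibitors stood first on average, though Timp3 and Timp1 overlapped with each other, with Timp2 and with the genes that follow. Mmp2 (124 ± 36.8) and Mmp14 (120.2 ± 32.0) were alike and made up most of the MMP signal. Mmp23 (60.2 ± 25.9) and Mmp13 (41.4 ± 22.9) came next and overlapped, followed by Mmp19 (19.6 ± 1.44), Mmp12 (11.3 ± 6.83) and Mmp3 (7.13 ± 8.07). In TauT-/- MSCs Timp2 was again first (374 ± 79.4), Timp1 and Timp3 were alike (272 ± 249 and 269 ± 181), and Mmp12, at 73.7 ± 87.4 (SD, n = 8), stood below only Mmp14 and Mmp2 among the MMPs by its mean. Without TauT-/- female 4 that mean was 45.4 ± 37.5 (SD, n = 7), close to the 44.4 ± 46.3 of Mmp13. Summed per length, the 3 inhibitors exceeded the 7 MMPs in all libraries but TauT-/- female 4. The ratio of the sums ran from 1.13 to 3.07 in TauT+/+ (median 1.55) and from 0.899 to 5.27 in TauT-/- libraries (median 2.16), and these ranges overlap. The ratio compares RNA and not active enzyme.

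Effects within male-label and female-label libraries were set side by side because the study sampled both. For Timp1 the log2 fold change was 0.62 (SE 0.81) under the male label and 1.47 (SE 0.80) under the female label, and for Timp3 it was 0.32 (SE 0.83) and 1.08 (SE 0.92). For Mmp13 it was 0.48 (SE 0.86) and -0.52 (SE 0.41), opposite in sign, and for Mmp3 1.59 (SE 1.64) and 0.83 (SE 1.19). No member differed between the labels in the edgeR interaction test, nor at an unadjusted p under 0.05, and 0% of the 18263 genes tested there did at an adjusted p of 0.05. The lowest unadjusted interaction p among the members was 0.294, for Mmp12.

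Without the doubted libraries, the other 9 members stayed short of the threshold as well, in fits where edgeR called only 0 to 7 of all genes. With each near-identical pair counted once, the log2 fold change of Timp1 was 1.02 or 0.94, that of Timp3 0.64 or 0.53, that of Mmp23 -0.77 or -0.68 and that of Mmp2 -0.34 or -0.31, for the female-label or the male-label library kept. Without the 3 libraries whose sex-linked genes disagree with the label, Mmp3 moved to 2.20 and Mmp13 to 0.17. The lowest edgeR adjusted p among these 9 genes in the 3 reduced sets was 0.357, for Timp1.

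Other genes of the same system were taken from a list of 64 genes by role, of which 56 were tested. In edgeR, 2 of the 56 rose (Ctss and Jund) and none fell, where 1.30% of all genes were called. At an unadjusted p under 0.05, counting those 2, 7 of the 56 were higher and 14 lower, a level that 23.6% of all genes reached. DESeq2 called 5 higher and 6 lower, where it called 12.1% of all genes. The median log2 fold change of the list was -0.15 against -0.015 for all genes. Without the doubted libraries, in each of the 3 reduced sets, edgeR called 0 of these genes, where it called 0 to 7 of all genes.

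Ctss, which encodes cathepsin S, a lysosomal and secreted protease of macrophages and other antigen-presenting cells, was at 36.9 to 316 CPM in TauT+/+ (median 194) and at 271 to 2503 CPM in TauT-/- libraries (median 672). It was above every TauT+/+ library in 6 of 8 TauT-/- libraries, with a log2 fold change of 2.07 (SE 0.47, edgeR adjusted p 0.0467). Like Mmp12 it was read beside the macrophage markers above, whose part in the difference was not tested. Jund encodes an AP-1 subunit and was at 166 to 194.7 CPM in TauT+/+ (median 186) and at 208 to 277 CPM in TauT-/- libraries (median 250.3). The genotypes did not overlap, which was so in 1.13% of all genes. The difference was small, a log2 fold change of 0.45 (SE 0.086, edgeR adjusted p 0.0323).

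The remaining roles held no gene past the edgeR threshold, and the gene with the smallest p of each is given. Among the 4 tested collagenases, gelatinases, stromelysins and matrilysins that are no members, it was Mmp11, a stromelysin of stromal cells. Its log2 fold change was -1.20 (SE 0.40), with an adjusted p of 0.101 in edgeR and 0.0313 in DESeq2. Among the 4 tested membrane-type MMPs it was Mmp16, at 0.92 (SE 0.78, edgeR adjusted p 0.494) and under 7 CPM in all libraries. Mmp28 (epilysin), of the 2 other MMPs tested, was at 12.3 to 27.2 CPM in TauT+/+ and 2.40 to 18.1 CPM in TauT-/- libraries, with 6 of 8 TauT-/- libraries below every TauT+/+ library. Its log2 fold change was -1.26 (SE 0.35), with an adjusted p of 0.0719 in edgeR and 0.0103 in DESeq2, close to the result for Mmp12 in rank and opposite in sign. Reck, a membrane-anchored MMP inhibitor, had a log2 fold change of -0.80 (SE 0.35, edgeR adjusted p 0.188).

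In the ADAMTS group of aggrecanases and procollagen proteinases, 7 of 9 tested genes were below 0, as were 8888 of all 17204 genes. In edgeR 0 of the 9 passed the threshold, 4 had an unadjusted p under 0.05 (23.6% of all genes did), and DESeq2 called 2 lower (12.1% of all genes were called). Adamts9 had the smallest p, at a log2 fold change of -2.23 (SE 0.71) with an adjusted p of 0.0925 in edgeR and 0.0134 in DESeq2. Of the membrane sheddases, Adam12 had a log2 fold change of -1.34 (SE 0.49, edgeR adjusted p 0.124). In plasminogen activation Plat, the tissue-type activator, had 0.85 (SE 0.30), with an adjusted p of 0.116 in edgeR and 0.0466 in DESeq2. Pcsk6, a convertase that activates proenzymes, had -1.47 (SE 0.67, edgeR adjusted p 0.201). Among the 12 transcription factors of the AP-1, ETS and RUNX families, 9 were below 0, so that Jund differed in sign from most of its list. Fosb and Fos, 2 further AP-1 genes named here after their values were seen, had larger differences of the opposite sign. Their log2 fold changes were -2.31 (SE 0.67) and -1.96 (SE 0.66), with adjusted p of 0.0773 and 0.106 in edgeR and of 0.00651 and 0.0238 in DESeq2.

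**Figure D5:**
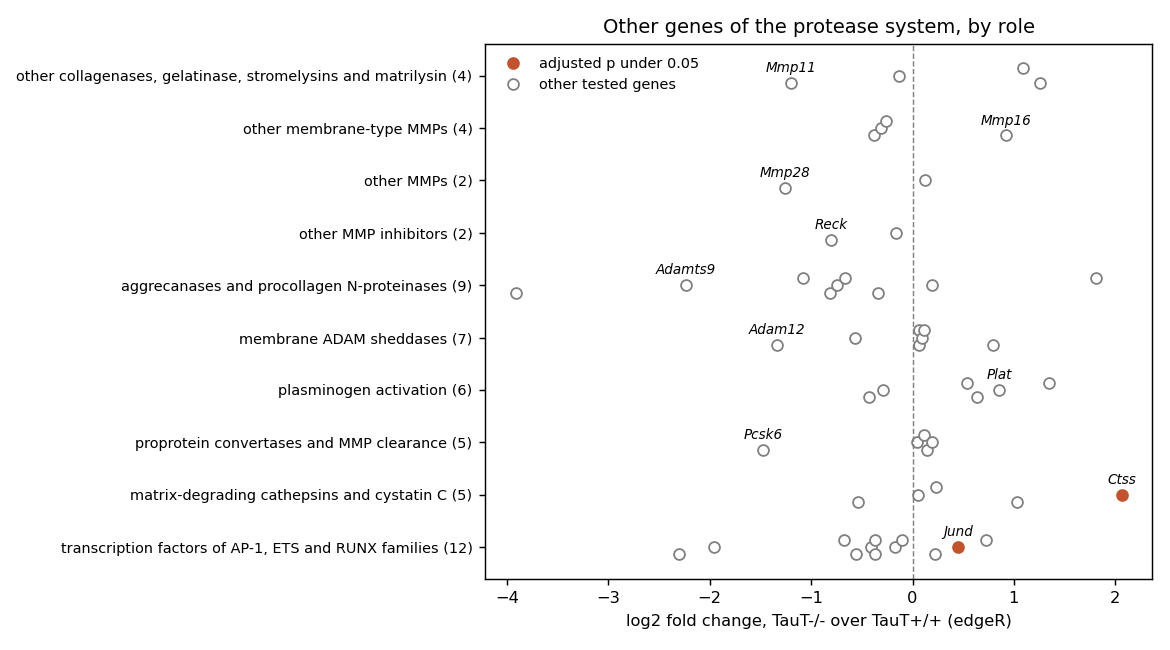
Log2 fold change (TauT-/- over TauT+/+, edgeR) of the 56 tested genes of the wider protease list, 1 point per gene, by role with the number tested in brackets. Filled points mark the 2 genes past an adjusted p of 0.05, Ctss and Jund, and names are given for these and for the gene with the smallest p in each other role.

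Lastly, the genes whose levels ran most like those of the clustered members were sought over all genes tested, as a description across 15 libraries that share genotype and near-identical pairs. For Mmp12 these were Mroh1, Cnnm2 and Tom1, with Pearson r of log2 CPM of 0.94, 0.93 and 0.93. For Mmp3 they were Napa, Zpr1 and Matk (0.88, 0.85 and 0.85), and for Mmp13 they were Arnt2, Auts2 and Dok6 (each 0.79). None of the 9 is an MMP or TIMP gene. Of the 9, Cnnm2 passed the edgeR threshold between genotypes, at a log2 fold change of 1.27 (adjusted p 0.0438).

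The reading of some members is limited by their position. Mmp12 overlaps Mmp1b on the opposite strand, Timp1 overlaps Syn1, Timp3 overlaps Syn3 and Mmp19 overlaps Tmem198b in the same manner, and Timp2 shares its strand with Cep295nl. Among long noncoding genes, Gm45472 overlaps Mmp2, Gm62879 and Gm56768 overlap Mmp14, Gm47093 overlaps Mmp19 and 4921501M06Rik overlaps Timp2. Reads were counted with a strand setting (featureCounts -s 2), but the library kit is not described as keeping strand. Whether the counts of overlapping stretches belong to 1 gene alone is therefore not known, although Mmp1b itself had too few reads to be tested.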

How the data were processed

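RNA was sequenced from cultured, CD45-depleted MSCs in 15 libraries of 2 genotypes. The authors trimmed reads with fastp 0.23.1, aligned them with STAR 2.7.9a to GRCm39 and counted them per gene with featureCounts (Subread 2.0.1, strand setting -s 2), and they deposited 1 table of raw counts. From these counts, edgeR 4.0.16 (R 4.3.3) was run with TMM scaling, its default low-count filter (17204 genes), terms for sex label and genotype, the quasi-likelihood test and Benjamini-Hochberg adjustment over all genes tested, at 0.05. CPM are TMM-scaled. Intervals are 95% intervals from the moderated degrees of freedom. The script was tested on simulated data of 17204 genes in 15 libraries, with a 4-fold change in 200 genes. Of 152 genes called by edgeR, 144 were changed ones, as were 169 of 221 by DESeq2 and 147 of 155 by limma. A larger part of the DESeq2 calls was thus false there. DESeq2 called 12.1% of all genes in the real data, far more than were changed in the simulation. The false share there therefore need not hold here, and that of genes called by DESeq2 alone was not tested. DESeq2 1.42.0, limma 3.58.1 (voom), other scalings and filters, reduced sets and fits leaving out each library were alternatives. Lengths and positions are from GENCODE for GRCm39, and promoters from RefSeq.

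The members and gene lists were chosen with earlier results of these data known. Named genes are all members, from each role of the wider list every gene called or else that with the smallest p, the 3 genes most correlated with Mmp3, Mmp12 and Mmp13, and 4 macrophage markers. Besides these, Lyz2, Col1a1, Cxcl12 and Col1a2 are named as the largest parts of the marker sums. Lists of markers for other cells were summed too, and edgeR called 0 of the 6 osteoclast, 2 neutrophil, 5 endothelial and 6 osteoblast markers tested. At an unadjusted edgeR p under 0.05 (23.6% of all genes), 2 endothelial markers were higher, and 1 osteoblast marker was higher and 1 lower. DESeq2 called 1 endothelial and 1 osteoblast marker higher, where it called 12.1% of all genes. Osteoclast and neutrophil markers gave 0 by either measure.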

Additional observations from a re-analysis of the deposited data

Results flagged for a closer look

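Dixon's 95% limit was applied to CPM in 30 sets of 4 libraries (10 genes in the 3 groups of 4). In 4 sets, 1 library lay farther from the rest than it allows. Chance gives about 1.5 only if the sets are independent and normally spread. CPM set a high library farther from the rest than log2 CPM do, so the excess over 1.5 is not read as a result. Mmp3 in TauT-/- male 3 was at 158 CPM with the next library at 11.2 CPM, a gap of 0.938 of the group's range. Mmp3 in TauT-/- female 4 was at 46.6 CPM with the next at 9.12 CPM, a gap of 0.905. Timp1 in TauT+/+ male 3 was at 808 CPM with the next at 223 CPM, a gap of 0.837, and Timp1 in TauT-/- male 3 was at 1317 CPM with the next at 359 CPM, a gap of 0.831. Of the 4, 2 are Timp1 in the male libraries numbered 3, 1 of each genotype, which also were the third closest of all library pairs (spread 0.300).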

How the results depend on the processing

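The main edgeR fit called no member, while DESeq2 called 1 and edgeR with the replicate block called 1. Both calls were Mmp12 (edgeR adjusted p 0.0427 with the block, log2 fold change 1.77). Below, edgeR with no further setting named means the main fit. The replicate numbers are shared by the genotypes, but deviations of same-numbered libraries correlated at 0.28, 0.22, 0.62 and 0.19 for the male label and at 0.28, 0.072 and -0.040 for the female label, so the pairing was not taken as real. Of the wider list, 2 genes were called by edgeR, 11 by DESeq2, 12 by limma with quality weights, 4 with the replicate block (all lower), and 0 with no filter on low counts, with the male-label or the female-label libraries alone, and in each of the 3 reduced sets. Over all genes, the calls higher and lower were 94 and 129 in edgeR, 972 and 1106 in DESeq2 and 611 and 708 in limma. They were 82 and 177 with the block, 32 and 42 with no filter, and 0 and 0 within either label. In the 3 reduced sets 2, 7 and 0 genes were higher and 0 lower. Leaving out 1 library gave 0 to 10 of the listed genes, 10 without TauT+/+ male 3, where 476 of all genes were higher and 779 lower. The counts of the list are read only beside these. The signs of 5 members were not fixed. Mmp13 was at 0.0043 with DESeq2, 0.0053 with DESeq2 size factors, 0.0050 with no filter, 0.059 without the sex term, 0.48 for the male label alone and 0.17 without the 3 mismatched libraries, and from -0.48 to 0.23 with 1 library left out. With 1 library left out, Mmp2 ran from -0.24 to 0.027, Mmp3 from -0.13 to 2.13, Mmp14 from -0.033 to 0.12 and Mmp19 from -0.014 to 0.11. Mmp19 was also at -0.046 for the female label alone and -0.0014 without the male-label library of each near-identical pair. Mmp12, Mmp23, Timp1, Timp2 and Timp3 kept their signs in all 28 alternatives, and no interaction call was made in any. The causes of these shifts were not tested. The female-label libraries have the least depth, and the wide spread between libraries sets the intervals.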
